A study of Mus musculus with 40 samples.

Results

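The Hoxc cluster holds 9 homeobox genes on mouse chromosome 15, namely Hoxc4, Hoxc5, Hoxc6, Hoxc8, Hoxc9, Hoxc10, Hoxc11, Hoxc12 and Hoxc13. All 9 were found by symbol among the 26906 genes of the count table, and their order of activation, their levels and their response to XAV939 were examined over 5 days. The samples were aggregates of mouse embryonic stem cells (line CGR8, strain 129) grown in serum-free N2B27 medium with Activin-A, Fgf2 and KSR, a serum replacement. XAV939 inhibits tankyrase, which stabilises Axin and lowers Wnt/beta-catenin signalling, and per the labels it was given between 0 and 72 h. XAV939 aggregates and untreated aggregates were each sampled daily between day 3 and day 7, and 4 libraries of each of these 10 groups make 40 libraries. The titles of the untreated libraries carry the words "no matrigel", which no XAV939 title does, so a difference in matrigel, if there was one, cannot be told apart from XAV939. All libraries came from 1 cell line, and nothing in the labels tells whether a group's libraries were grown separately, so the p-values cover no more than the spread among these libraries, which may be technical.

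Hox genes encode DNA-binding proteins that give cells their position along the head-to-tail axis. In vertebrate embryos genes at the 3′ end of a cluster are generally switched on earlier and further towards the head than genes at the 5′ end, and signals such as Wnt, FGF and retinoic acid act on this opening. Mouse has no Hoxc1, Hoxc2, Hoxc3 or Hoxc7 gene, so Hoxc4 is the 3′-most member. Hoxc4 and Hoxc5 act at neck and upper trunk levels, Hoxc6 and Hoxc8 at forelimb and thoracic levels, and Hoxc9 at thoracic levels, where it helps to set motor neuron identity. Hoxc10 and Hoxc11 act at lumbar and sacral levels, Hoxc12 more caudally, and Hoxc13 is best known for hair and nail formation.

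In GENCODE M21, which uses the mm10 build named in the submitters' notes, the 9 genes lie on the plus strand at chr15:102921103-103036852, a span of 116 kb. Hoxc13 stands first and Hoxc4 last. The protein-coding transcript of Hoxc4 with the shorter span begins at 103034395, and a longer one begins at 103018934. Hoxc8, the member with the highest day 6 mean level per length, spans 102990607 to 102994111. The annotated span of Hoxc5, 102967443 to 103017429, overlaps those of Hoxc6, Hoxc8, Hoxc9 and Hoxc10 because 1 processed transcript starts within the span of Hoxc10. Of the exon bases of Hoxc5, 166 (5.37%) are shared with Hoxc10, so reads of either gene could have been counted for the other. No other pair of members shares exon bases.

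Mir196a-2 lies between Hoxc10 and Hoxc9, and the mature miR-196a it yields is known in mouse to repress Hoxc8. The microRNA itself was not analysed here, since the table has no entry for it. Its RefSeq sequence (GRCm38.p6, chr15:102973365-102973386, plus strand) is shown with the seed, bases 2 to 8, in capitals. Below it stand the 2 stretches of the Hoxc8 3′ UTR (966 nt, ENSMUST00000001703, GENCODE M21) that hold the seed's complement, ACTACCT, again in capitals.
mmu-miR-196a-5p: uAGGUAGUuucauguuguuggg
Hoxc8 site at UTR base 135: gacactcacaactctaACTACCTgtcaga
Hoxc8 site at UTR base 892: aataaatctttaacatACTACCTaaaggg
The 3′ UTRs of the other 8 members do not hold ACTACCT on the transcribed strand. It is found in 6.1% of 21028 genes with a 3′ UTR, and in 3.72% of 2955 genes with a 3′ UTR of similar length to that of Hoxc8. A match to the seed is a description of the sequence and not a measured site.

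Counts per library summed to between 30197759 and 44086019. Levels are CPM, counts scaled to library size with trimmed means of M values, and levels of different genes are compared only as CPM per kilobase of merged exon. Each test is edgeR's quasi-likelihood test, with p adjusted by Benjamini-Hochberg over the 16878 genes that passed a filter on low counts, and a gene was called when adjusted p was below 0.05. Of the 9 members, 6 passed (Hoxc4, Hoxc5, Hoxc6, Hoxc8, Hoxc9 and Hoxc13), and Hoxc10, Hoxc11 and Hoxc12 did not. At day 3 Pou5f1, which marks pluripotent cells, had 709 to 896 CPM in XAV939 and 701 to 898 CPM in untreated libraries. Untreated library 1 of day 5 stood apart from the other 3 libraries of its group in all 5 members from Hoxc4 to Hoxc9, and the tests of the members at day 5 are given with and without it. Untreated library 3 of day 6 stood apart in genes around the cluster, with 27.8 CPM of Atf7 against 70.1 to 83.1 CPM in the other 3 libraries of its group, 668 CPM of Cbx5 against 1381 to 1912 CPM and 218 CPM of Atp5g2 against 84.6 to 95.7 CPM. Away from the cluster this library had 319 CPM of Aldh1a2 against 112 to 181 CPM, and 102 CPM of Cdx1 against 8.1 to 26.3 CPM. Its Cdx4 lay within the range of the others. In bulk RNA, fewer cells with a transcript and less RNA per cell cannot be told apart.

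At days 3 and 4 the cluster between Hoxc4 and Hoxc9 was at or near the floor in both arms. Hoxc4 had 1 count over the 4 XAV939 libraries and 0 over the 4 untreated libraries of day 3, and 6 counts in XAV939 and 2 in untreated libraries of day 4. Hoxc5, Hoxc6, Hoxc8 and Hoxc9 each had at most 4 counts over any of these 4 groups. No member was called between the arms at day 3 or day 4, where edgeR called 0% of genes higher on both days and 0.00592% and 0.0178% lower. At an unadjusted p below 0.05 edgeR found 309 genes at day 3 and 944 at day 4, and over all genes DESeq2 called 0 at day 3, and 18 higher and 38 lower at day 4. A change in these members was not detectable at this depth, since 3 counts over a group correspond to about 0.0205 to 0.0229 CPM.

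Hoxc4 had the highest mean level per length of the 9 members at day 5 in XAV939 aggregates, at 0.068 ± 0.0494 CPM per kb. This rests on 23 counts over the 4 libraries, and its range overlapped that of Hoxc13 (0.0439 ± 0.0347 CPM per kb). These levels are too near the floor to order the members. At day 5 the 4 XAV939 libraries had 0.14, 0.11, 0.0859 and 0.362 CPM of Hoxc4, against 6.33, 0.847, 0.452 and 0.553 CPM in the 4 untreated libraries. Every untreated library was above every XAV939 library, and untreated library 1 was the highest by a wide margin. At day 6 Hoxc4 had 5.37, 6.53, 14.7 and 13.3 CPM in XAV939 libraries and 22.2, 8.97, 11.3 and 24.0 CPM in untreated libraries. At day 7 it had 6.16, 11.3, 13.4 and 15.3 CPM in XAV939 libraries and 17.8, 9.14, 13.7 and 18.3 CPM in untreated libraries. The arms overlapped on both later days, with XAV939 library 1 the lowest of all 8 each time.

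Hoxc5 followed Hoxc4 at a lower level. Its day 5 values were 0.0281, 0.138, 0 and 0.23 CPM in XAV939 libraries, against 3.23, 0.424, 0.141 and 0.263 CPM in untreated libraries. XAV939 library 4 lay within the untreated range, so the arms overlapped at day 5, although the XAV939 library was the lower one in 4 of 4 pairs of the same number there and at day 6. By day 6 Hoxc5 reached 1.76, 2.81, 5.13 and 3.49 CPM in XAV939 libraries and 5.78, 4.26, 5.43 and 5.89 CPM in untreated libraries. The 4 untreated libraries of day 6 were close together for Hoxc5, which they were not for Hoxc4, Hoxc6, Hoxc8 or Hoxc9. At day 7 it averaged 3.29 ± 1.28 CPM in XAV939 aggregates and 4.2 ± 1.09 CPM in untreated aggregates (SD, n = 4 each).

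Hoxc6 was nearly silent at day 5 with XAV939, where the 4 libraries had 2, 1, 0 and 0 counts. The untreated libraries of day 5 had 91, 12, 5 and 3 counts. The lowest untreated library was above the highest XAV939 library, by 1 count. At day 6 Hoxc6 had 2.02, 3.75, 6.27 and 7.14 CPM in XAV939 libraries and 13.3, 6.06, 5.04 and 14.4 CPM in untreated libraries. Untreated libraries 1 and 4 were above all 4 XAV939 libraries, and untreated libraries 2 and 3 were within their range. At day 7 the means were 6.23 ± 2.87 CPM in XAV939 aggregates and 8.32 ± 2.57 CPM in untreated aggregates.

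Hoxc8 reached the highest counts of the cluster. At day 5 it had 2, 10, 0 and 4 counts in XAV939 libraries, against 326, 54, 16 and 12 counts in untreated libraries, with no overlap. At day 6 the XAV939 libraries had 6.98, 9.28, 18.7 and 19.3 CPM and the untreated libraries 38.5, 16.7, 12.1 and 38.7 CPM. Untreated libraries 1 and 4 again stood above every XAV939 library. At day 7 Hoxc8 had 3.99, 3.96, 8.21 and 7.91 CPM in XAV939 libraries and 18.2, 2.73, 16.4 and 12.7 CPM in untreated libraries. Here 3 untreated libraries were above all 4 XAV939 libraries and untreated library 2 was below them all.

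Hoxc9, the 5′-most member that was switched on, stayed low. Its day 5 counts were 1, 2, 0 and 0 in XAV939 libraries and 23, 2, 4 and 1 in untreated libraries, which overlap. At day 6 it had 0.403, 0.468, 0.648 and 1.07 CPM in XAV939 libraries and 4.08, 0.828, 0.937 and 2.81 CPM in untreated libraries. XAV939 library 4 was above untreated libraries 2 and 3, so the arms overlapped, although the XAV939 library was the lower one in 4 of 4 pairs of the same number. For Hoxc4, Hoxc6 and Hoxc8 the day 6 pair of number 3 went the other way. There the XAV939 library had 14.7, 6.27 and 18.7 CPM, against 11.3, 5.04 and 12.1 CPM in the untreated library. At day 7 the XAV939 libraries had 0.222, 0.383, 0.486 and 0.503 CPM and the untreated libraries 1.88, 0.0975, 1.21 and 0.846 CPM. Untreated library 2 was the lowest of the 8 for Hoxc9, as it was for Hoxc8.

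Hoxc10, Hoxc11 and Hoxc12 were not switched on by day 7. Each had at most 1 count over the 4 libraries of any group, and at day 7 the floor of 3 counts over a group was 0.0203 CPM in XAV939 and 0.0191 CPM in untreated aggregates. Hoxc13 had its highest counts at the start, with 28 counts over the 4 XAV939 libraries and 40 over the 4 untreated libraries at day 3. By day 7 it had 3 counts in XAV939 and 1 count in untreated libraries. Its mean at days 3, 4, 5, 6 and 7 was 0.213, 0.0897, 0.108, 0.0194 and 0.0207 CPM in XAV939 aggregates, and 0.267, 0.153, 0.106, 0.0225 and 0.00558 CPM in untreated aggregates. No step of Hoxc13 between neighbouring days was called by edgeR (adjusted p 0.126 to 0.995).

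**Figure D1:**
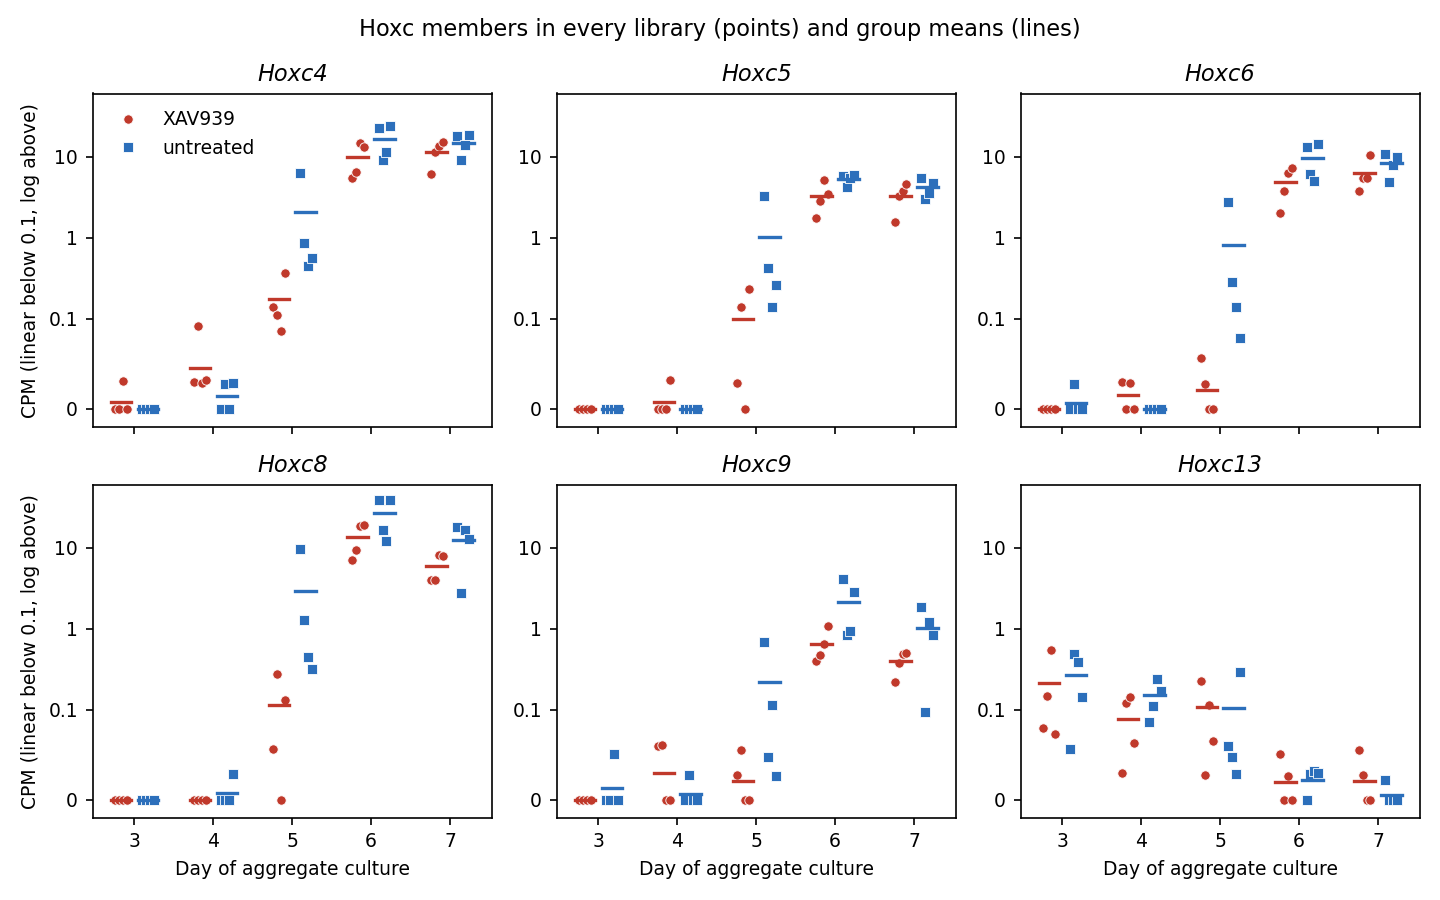
CPM of 6 Hoxc members (y axis, linear below 0.1 and logarithmic above) by day (x axis), with 1 point per library and a line at each group's mean, XAV939 left of untreated. Hoxc4, Hoxc5, Hoxc6, Hoxc8 and Hoxc9 leave the floor at day 5 or 6 and stay on at day 7. The points of Hoxc13 lie lower at days 6 and 7 than at day 3, with no step called.

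To ask in which order the members came on, each day was set against the day before within an arm. In untreated aggregates 5 members (Hoxc4, Hoxc5, Hoxc6, Hoxc8 and Hoxc9) were called higher at day 5 than at day 4, where 10.5% of all genes tested were called higher. Summed over the 4 untreated libraries Hoxc4 had 285 counts at day 5 against 2 at day 4, a ratio of 132 after scaling (exact 95% interval 36.3 to 1099, counting error only). Hoxc8 had 408 counts against 1 (ratio 379, interval 67.7 to 15015) and Hoxc9 30 counts against 1 (ratio 27.9, interval 4.64 to 1138). Hoxc5 and Hoxc6 had 0 counts in all 4 untreated libraries of day 4, and day 5 was at least 43.7-fold and at least 34.4-fold higher when a summed count of 3 stands in for the 0. The edgeR adjusted p was 9.62e-06 for Hoxc4, 0.000138 for Hoxc5, 0.000394 for Hoxc6, 0.000221 for Hoxc8 and 0.0235 for Hoxc9. Without untreated library 1 of day 5 the rise of Hoxc9 lost its call (log2 fold change 2.59, adjusted p 0.296) and the other 4 members kept theirs. It also lost it without untreated library 3 or 4 of day 4 (adjusted p 0.0685 and 0.0609).

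In XAV939 aggregates 0 members were called higher at day 5 than at day 4 by edgeR, where 15.9% of all genes tested were called higher. Hoxc5 had 13 counts over the 4 XAV939 libraries of day 5 against 1 at day 4 (ratio 12.6, exact 95% interval 1.89 to 534), with adjusted p 0.144. Hoxc8 had 16 counts against 0, at least 5.16-fold higher with 3 counts in place of the 0, with adjusted p 0.173. DESeq2 called 2 members in this step, and edgeR without library 1 of every group called 1. Hoxc4 had 23 counts at day 5 against 6 at day 4 (log2 fold change 1.83, SE 1.11, adjusted p 0.22).

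The step into day 6 was called for the same 5 members in both arms. In XAV939 aggregates the rise over day 5 was 5.85 on the log2 scale for Hoxc4 (SE 0.69, edgeR adjusted p 4.25e-07) and 5.05 for Hoxc5 (SE 0.79, edgeR adjusted p 4.75e-05). Hoxc8 rose by 6.82 (SE 1.0, edgeR adjusted p 2.17e-05). Hoxc6 had 722 counts over the XAV939 libraries of day 6 against 3 at day 5, a ratio of 218 (exact 95% interval 74.3 to 1060), and Hoxc9 98 counts against 3, a ratio of 29.6 (interval 9.83 to 146). In this step 9.27% of all genes were called higher, and in all 5 members the lowest day 6 library was above the highest day 5 library, as it was in 10% of genes.

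In untreated aggregates, where day 5 lay above the floor, the day 6 rise over day 5 on the log2 scale was 3.04 for Hoxc4 (SE 0.55), 2.41 for Hoxc5 (SE 0.61), 3.62 for Hoxc6 (SE 0.65), 3.18 for Hoxc8 (SE 0.74) and 3.35 for Hoxc9 (SE 0.72). The edgeR adjusted p ran from 0.000123 for Hoxc4 to 0.00537 for Hoxc5, and 11.1% of all genes were called higher. Without untreated library 1 of day 5 these rises were larger, 4.73 for Hoxc4, 4.24 for Hoxc5, 5.80 for Hoxc6, 5.26 for Hoxc8 and 5.08 for Hoxc9. The difference between the arms in this step, tested as the change of the XAV939 effect at day 6 against day 5, was called by edgeR for 0 of the 6 members (Hoxc4 2.81, and 1.12 without untreated library 1 of day 5, adjusted p 0.637 to 1 over the 6) and for 0 of all 16878 genes. It had an unadjusted p below 0.05 for 4 members (Hoxc4, Hoxc5, Hoxc6 and Hoxc8), and DESeq2 called none of the 5 activated members.

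By day of onset, taken as the first day on which all 4 libraries of a group had at least 10 counts, the order of the 5 members depended on the limit. In XAV939 aggregates Hoxc4, Hoxc5, Hoxc6, Hoxc8 and Hoxc9 all came on at day 6. In untreated aggregates Hoxc4 and Hoxc8 came on at day 5 and Hoxc5, Hoxc6 and Hoxc9 at day 6. With a limit of 3 counts the untreated onset was day 5 for Hoxc4, Hoxc5, Hoxc6 and Hoxc8, and Hoxc4 alone came on at day 5 with XAV939. Hoxc8 thus came on a day before Hoxc5 and Hoxc6 in untreated aggregates with 10 counts. With 3 counts none of these 5 members came on before another of them that lies 3′ of it in either arm. Hoxc13, which lies 5′ of them all, reached 3 counts in every untreated library at day 4, before any of them. With a limit of 30 counts all onsets were at day 6 and Hoxc9 had none. Sampling once a day cannot order members that came on within the same day, and a limit on counts is reached later by a gene with a lower level or a shorter transcript.

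As share of each member's highest daily mean within the same arm, the untreated day 5 means were 12.3% for Hoxc4, 19% for Hoxc5, 8.3% for Hoxc6, 11.1% for Hoxc8 and 10.1% for Hoxc9. In XAV939 aggregates the day 5 shares of the highest XAV939 mean were 1.52%, 3%, 0.336%, 0.856% and 3.22%. Hoxc5 was thus furthest towards its own maximum among the 5 at day 5 in untreated aggregates, and Hoxc6 least far in both arms. The untreated shares rest largely on library 1. With XAV939 the shares of Hoxc6 and Hoxc9 rest on 3 counts each over the group, and Hoxc9 was at 4.68% already at day 4. The XAV939 shares are thus too near the floor to order these members.

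**Figure D2:**
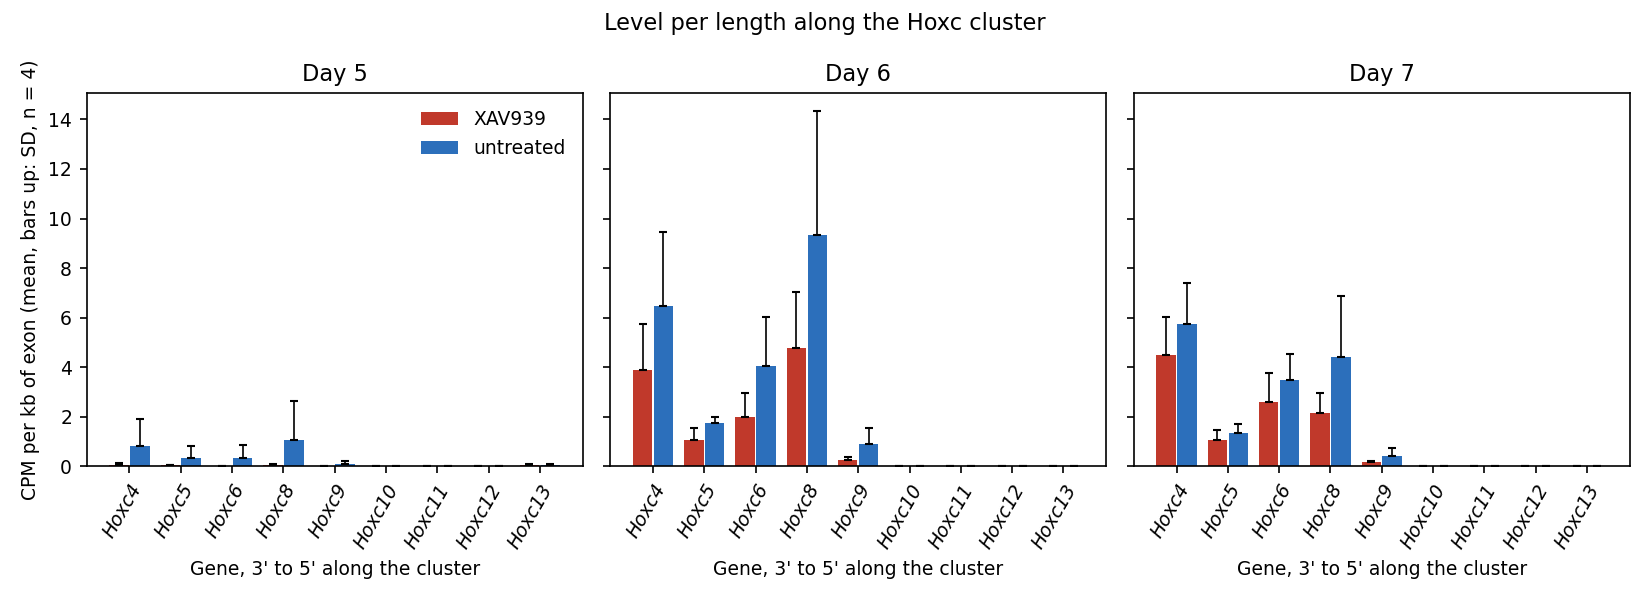
Mean CPM per kilobase of merged exon (y axis, bars up to 1 SD, n = 4) of the 9 members in 3′ to 5′ order (x axis) at days 5, 6 and 7, XAV939 left of untreated. At day 6 Hoxc8 has the highest mean in both arms, at day 7 Hoxc4 has, and Hoxc10, Hoxc11, Hoxc12 and Hoxc13 are at the axis.

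Per length, the order of levels at day 6 was the same in both arms, and it did not follow the order along the chromosome. Hoxc8 had 4.79 ± 2.24 CPM per kb in XAV939 aggregates and 9.35 ± 4.98 in untreated aggregates. Hoxc4 came next, with 3.89 ± 1.84 and 6.48 ± 2.96 CPM per kb in XAV939 and untreated aggregates. Hoxc6 had 1.99 ± 0.973 and 4.03 ± 2.01, Hoxc5 1.07 ± 0.458 and 1.73 ± 0.243, and Hoxc9 0.266 ± 0.123 and 0.891 ± 0.645 CPM per kb in the same arms. Hoxc8, Hoxc4 and Hoxc6 overlapped with their neighbours in this order in XAV939 aggregates, whereas the range of Hoxc9 was clear of Hoxc5. In untreated aggregates the ranges of Hoxc5 and Hoxc9 overlapped, and Hoxc6 was clear of Hoxc5.

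At day 7 the order per length differed. Hoxc4 was highest, at 4.49 ± 1.53 CPM per kb in XAV939 aggregates and 5.75 ± 1.66 in untreated aggregates. With XAV939 Hoxc6 (2.59 ± 1.19) stood above Hoxc8 (2.13 ± 0.834), and without it Hoxc8 (4.42 ± 2.44) stood above Hoxc6 (3.46 ± 1.07), but these pairs overlapped. Hoxc5 had 1.06 ± 0.416 and 1.36 ± 0.351 CPM per kb, and Hoxc9, clear of Hoxc5 in both arms, 0.164 ± 0.0532 and 0.414 ± 0.305 CPM per kb in XAV939 and untreated aggregates.

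No member was called between day 7 and day 6 by edgeR in either arm, where 4.2% of genes were called higher and 2.96% lower in XAV939 aggregates and 5.17% and 7.02% in untreated aggregates. Hoxc8 differed by -1.17 on the log2 scale in XAV939 aggregates (SE 0.69, adjusted p 0.386) and -1.08 in untreated aggregates (SE 0.68, adjusted p 0.31). Hoxc9 differed by -0.69 (SE 0.68) and -1.10 (SE 0.62), while Hoxc4, Hoxc5 and Hoxc6 lay between -0.35 and 0.38 in both arms. The day 7 mean was 44.4% of the day 6 mean for Hoxc8 and 61.6% for Hoxc9 in XAV939 aggregates, and 47.3% and 46.5% in untreated aggregates. Hoxc4, Hoxc5 and Hoxc6 were at 78.6% or more of their day 6 mean in untreated aggregates.

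Within each library the level of Hoxc8 can be set against that of Hoxc4. The ratio of their CPM per kb in XAV939 libraries was 0.588, 0.318, 0.557 and 0.47 at day 7, against 1.18, 1.29, 1.15 and 1.31 at day 6, with no overlap. In untreated libraries it was 0.924, 0.271, 1.09 and 0.63 at day 7, against 1.57, 1.69, 0.966 and 1.46 at day 6. These ranges overlapped through library 3, the highest of day 7 and the lowest of day 6. The day 6 library is the one that stood apart in other genes, and it was not flagged for any Hoxc member. Without it, a choice made with its values seen, the lowest ratio of day 6 was 1.46. The ratio of Hoxc9 to Hoxc4 in XAV939 libraries was 0.0348 to 0.0384 at day 7, against 0.0465 to 0.0846 at day 6. In untreated libraries it was 0.0113 to 0.111 at day 7 and 0.0876 to 0.194 at day 6, which overlap. Hoxc6 over Hoxc4 averaged 0.578 ± 0.133 at day 7 and 0.509 ± 0.0987 at day 6 in XAV939 libraries, and 0.598 ± 0.0353 and 0.618 ± 0.103 in untreated libraries. These ratios were chosen after the levels were seen and carry no test. Hoxc8 is also the member whose 3′ UTR holds the 2 miR-196a seed matches shown above, and whether the microRNA had a part in these values was not tested.

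**Figure D3:**
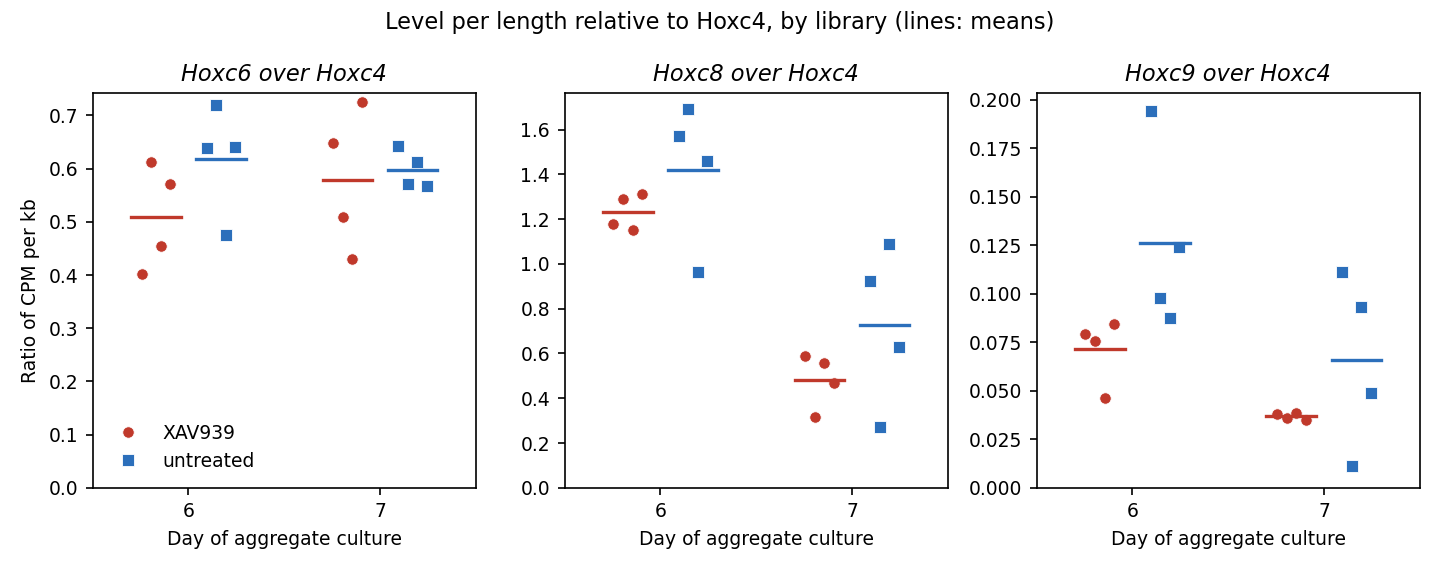
Ratio of CPM per kilobase to that of Hoxc4 (y axes from 0) at days 6 and 7 (x axes), 1 point per library and a line at each mean, XAV939 left of untreated. Hoxc8 over Hoxc4 lies at 1.15 to 1.31 in the XAV939 libraries of day 6 and at 0.318 to 0.588 in those of day 7, while Hoxc6 over Hoxc4 overlaps between days.

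The comparison of the arms asked how the cluster stood after early Wnt inhibition, since all of days 5 to 7 lie past the 72 h of XAV939. At day 5, 4 of the 6 tested members were called lower in XAV939 aggregates and none higher, where edgeR called 1.43% of all genes lower and 0.912% higher. Hoxc4 stood at -3.55 on the log2 scale (SE 0.69, adjusted p 0.00517) and Hoxc6 at -4.97 (SE 1.08, adjusted p 0.011). Hoxc8 was at -4.61 (SE 0.99, adjusted p 0.0118) and Hoxc5 at -3.34 (SE 0.81, adjusted p 0.0251). Hoxc9 was at -3.08 (SE 1.16, adjusted p 0.192), and Hoxc13 at 0.027 (SE 0.77, adjusted p 0.997). Arms did not overlap for Hoxc4, Hoxc6 and Hoxc8, as in 4.02% of all genes, which were lower without overlap.

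In summed counts Hoxc6 had 3 in XAV939 and 111 in untreated libraries, a ratio of 0.0294 (exact 95% interval 0.00598 to 0.0883, counting error only). The ratio was 0.0427 (interval 0.0242 to 0.0702) for Hoxc8, 0.0879 (0.0548 to 0.134) for Hoxc4 and 0.1 (0.0522 to 0.177) for Hoxc5. Hoxc9 had 3 counts with XAV939 and 30 without, a ratio of 0.109 (0.0213 to 0.35).

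All 4 calls rested on untreated library 1. Without it the untreated means fell to 0.617 ± 0.205 CPM for Hoxc4, 0.276 ± 0.142 for Hoxc5, 0.168 ± 0.104 for Hoxc6 and 0.68 ± 0.517 for Hoxc8 (SD, n = 3), against 0.175 ± 0.127, 0.0991 ± 0.106, 0.0209 ± 0.0268 and 0.116 ± 0.12 CPM with XAV939. The log2 fold changes were then -1.85, -1.51, -2.78 and -2.53, with edgeR adjusted p of 0.0939, 0.341, 0.185 and 0.166. Without XAV939 library 4 only Hoxc4 kept its call (Hoxc6 adjusted p 0.0618, Hoxc8 adjusted p 0.0578). Hoxc5 lost it without any 1 of the 4 XAV939 libraries (adjusted p 0.0512 to 0.0747), and in the fit blocked by replicate number within day (-2.90, adjusted p 0.0524), where the other 3 kept theirs. A fit of only the 8 libraries of day 5 called 0 genes in all, with 1876 at an unadjusted p below 0.05, whereas DESeq2 on all 40 libraries called the same 4 members (adjusted p 0.000236 to 0.00135).

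**Figure D4:**
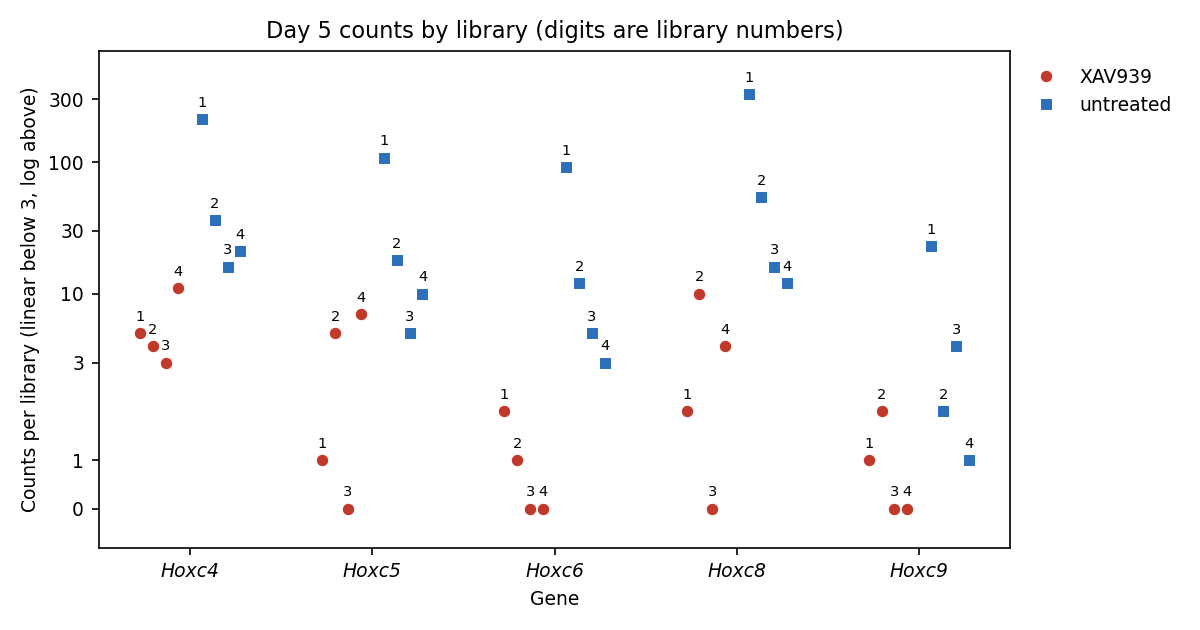
Counts at day 5 (y axis, linear below 3 and logarithmic above) of 5 members (x axis) in each of the 4 XAV939 libraries (left) and 4 untreated libraries (right), marked by library number. Untreated library 1 is the highest in each member, and the other untreated libraries of Hoxc4, Hoxc6 and Hoxc8 still lie above all XAV939 libraries.

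At days 6 and 7 no member was called between the arms, where edgeR called 2.95% of genes lower and 1.39% higher at day 6 and 0.00592% and 0% at day 7. DESeq2 called none of the 5 activated members on either day, and an unadjusted p below 0.05 was found for Hoxc9 at day 6 alone (0.0103). The means of all 5 were lower with XAV939 on both days. At day 6 the log2 fold change was -0.74 for Hoxc4 (SE 0.50), -0.69 for Hoxc5 (SE 0.57), -1.02 for Hoxc6 (SE 0.57), -0.97 for Hoxc8 (SE 0.68) and -1.74 for Hoxc9 (SE 0.64), with adjusted p between 0.132 for Hoxc9 and 0.616 for Hoxc5. At day 7 it was -0.36 (SE 0.50), -0.35 (SE 0.57), -0.42 (SE 0.57), -1.05 (SE 0.69) and -1.33 (SE 0.67) for the same genes, with adjusted p between 0.662 and 1. Without untreated library 3 of day 6 the day 6 values were -0.88, -0.68, -1.23, -1.20 and -1.98 (adjusted p 0.114 to 0.885). The change of the effect at day 7 against day 5 was called by edgeR for 0 members, where 0.0118% of all genes were called higher and 0% lower (Hoxc4 3.19, SE 0.86, adjusted p 0.295). Without untreated library 1 of day 5 the value of Hoxc4 was 1.5 (adjusted p 0.882).

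**Figure D5:**
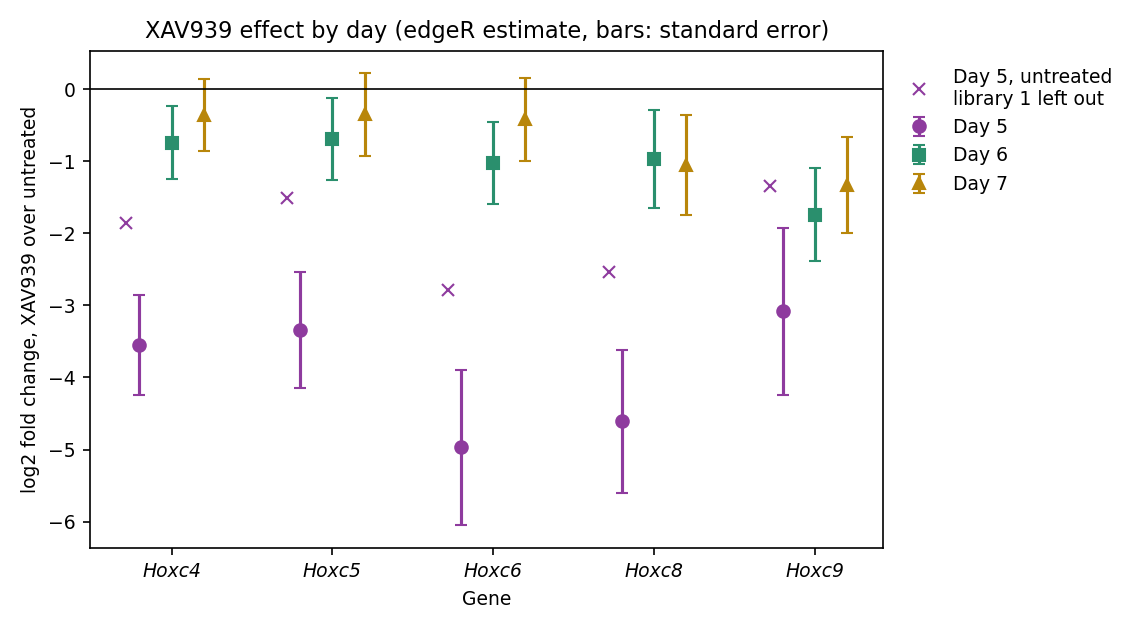
log2 fold change of XAV939 over untreated (y axis, bars 1 standard error) for 5 members (x axis) at days 5, 6 and 7, with crosses for day 5 without untreated library 1. At day 5 the values run from -4.97 to -3.08, and at days 6 and 7 from -1.74 to -0.35.

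The other 3 Hox clusters were examined in the same comparison. At day 5, 3 of 8 tested Hoxa, 7 of 9 Hoxb and 3 of 5 Hoxd genes were called lower with XAV939 and none higher. Over all genes edgeR called 1.43% lower and 0.912% higher. The median log2 fold changes of the 3 clusters were -1.72, -2.72 and -2.58, against 0.014 over all genes. Among the paralogues of Hoxc4, Hoxd4 was at -3.16 (SE 0.60, edgeR adjusted p 0.00581), Hoxb4 at -2.73 (adjusted p 0.0097) and Hoxa4 at -1.88 (adjusted p 0.0465). Of the paralogues of Hoxc8, Hoxb8 was at -2.93 (SE 0.55, adjusted p 0.0039) and Hoxd8 at -2.58 (adjusted p 0.0281). Without untreated library 1, Hoxd4 alone of these 22 genes kept its call (-2.25, adjusted p 0.0442), and Hoxb8 was at -1.42 (adjusted p 0.0772). Summed over each cluster, without regard to gene length, the Hoxa genes had 42.9 ± 11.6 CPM in XAV939 and 81.9 ± 38.4 CPM in untreated aggregates at day 5, and the Hoxb genes 46.1 ± 19.8 and 120 ± 93.5 CPM. The 9 Hoxc members together had 0.54 ± 0.25 CPM in XAV939 and 7.14 ± 10.4 CPM in untreated aggregates. In untreated library 1 the Hoxa, Hoxb and Hoxc sums were 122, 259 and 22.8 CPM, and in the other 3 untreated libraries 42.5 to 106, 58.1 to 87.9 and 1.33 to 2.94 CPM. In XAV939 aggregates 5 of 8 Hoxa, 7 of 9 Hoxb and 3 of 5 Hoxd genes were called higher at day 5 than at day 4 and 1 Hoxd gene (Hoxd13) lower, where 15.9% of all genes were called higher and none of the Hoxc members was. Whether the clusters differ in this step was not tested.

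At day 6, 0 of the 22 tested Hoxa, Hoxb and Hoxd genes were called between the arms, where edgeR called 2.95% of all genes lower and 1.39% higher. Hoxb9, a paralogue of Hoxc9, had 117 ± 54 CPM in XAV939 and 173 ± 76.6 CPM in untreated aggregates (log2 fold change -0.57, SE 0.51, adjusted p 0.655). Hoxa9, another paralogue of Hoxc9, had 1.24 ± 0.923 and 3.55 ± 1.93 CPM in the same arms. Its edgeR log2 fold change was -1.51 (SE 0.65, adjusted p 0.238), near the -1.74 of Hoxc9.

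Of 18 genes known to act on Hox clusters 2 were called lower at day 5 and none higher, where 1.43% of all genes were called lower. Aldh1a2, the enzyme that makes retinoic acid, stood at -5.05 on the log2 scale at day 5 (SE 0.71, edgeR adjusted p 0.000256), with 1.6, 4.09, 0.429 and 2.17 CPM in XAV939 libraries and 216, 35.0, 20.7 and 4.82 CPM in untreated libraries. Cyp26a1, which breaks retinoic acid down, was lower by -2.12 (SE 0.46, adjusted p 0.01). Without untreated library 1 Aldh1a2 kept its call (-3.28, adjusted p 0.00354) and Cyp26a1 did not (adjusted p 0.052). The caudal factors Cdx1, Cdx2 and Cdx4 were at -2.21, -1.51 and -2.20 (adjusted p 0.183 to 0.31), and at -1.15, -0.98 and -1.38 without untreated library 1. Untreated library 1 was the highest of the 8 for each of them, at 134, 119 and 12.8 CPM against at most 28.5, 47.3 and 4.61 CPM in the other untreated libraries. For T, another caudal marker, it was the lowest of its group, at 283 CPM against 372 to 490 CPM. None of 9 Hox cofactors (Pbx, Meis and Pknox genes, whose proteins bind DNA together with Hox proteins) and none of 24 Polycomb and trithorax genes, which hold Hox chromatin closed or open, was called at day 5.

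Markers of the cell types that the aggregates could hold differed between the arms in both directions at day 5, where 1.43% of all genes were called lower and 0.912% higher. Of 17 presomitic and somitic genes 8 were called lower and none higher with XAV939, and their summed level was 56.9 to 96.8 CPM in XAV939 and 74 to 593 CPM in untreated libraries, the highest being untreated library 1. The next untreated library had 201 CPM. Without untreated library 1 of day 5, 2 genes of this list were called lower. Aldh1a2 belongs to this list too. Foxc2 and Meox1, both somite factors, were at -4.06 (adjusted p 0.0021) and -3.29 (adjusted p 0.00381). Of 13 neuromesodermal and caudal epiblast genes, a list that shares Cyp26a1 and the Cdx genes with the regulators, 1 was called lower (Cyp26a1), and their summed level was 484 to 800 CPM with XAV939 and 1161 to 1355 CPM without. Of 11 endoderm and gut genes 5 were called lower (2 without that library), with summed levels of 271 to 557 CPM with XAV939 and 725 to 1413 CPM without. In the spinal cord and motor neuron list 1 of 13 genes was called lower (Isl1), the median log2 fold change was 0.33, and the summed level was 120 to 197 CPM with XAV939 and 69.1 to 116 CPM without. The lateral and limb mesoderm list had 1 of 9 tested genes called lower (Gata4) and a median of -0.22. The forebrain and midbrain list had a median of 0.66, with 7 of 10 tested genes on the higher side and none called lower, and summed levels of 43 to 64.4 CPM with XAV939 and 39.5 to 97.7 CPM without. At day 6, where no Hoxc member was called and 2.95% of all genes were called lower and 1.39% higher, 3 presomitic and somitic genes (Tcf15, Meox2 and Uncx) and 6 endoderm and gut genes were called lower. So were 2 lateral and limb genes (Gata4 and Hand2), 1 neuromesodermal gene (Cyp26a1) and 2 of the forebrain and midbrain list (Rax and Hesx1). Nkx6-2 of the spinal cord list and En1 and En2 of the forebrain and midbrain list were called higher. The part of these cell types in the Hoxc values was not tested.

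Libraries of 1 group also differed in the marker Pou5f1 at later days. At day 6 untreated libraries 1 and 4, which were high for Hoxc4, Hoxc6, Hoxc8 and Hoxc9, had 3.28 and 22.3 CPM of the pluripotency gene Pou5f1, and libraries 2 and 3, which were low, had 58.6 and 138 CPM. At day 7 untreated library 2, low for Hoxc8 and Hoxc9, had 10.8 CPM of Pou5f1 against 0.826 to 2.86 CPM in the other 3. Pou5f1 was chosen for this remark after its values were seen, and its part in the spread was not tested.

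Genes around the cluster were read to see whether the change reached past its ends. Within 300 kb of the ends 32 further genes are annotated, 18 are in the table and 12 were tested. Of these 12, edgeR called 0 between the arms on day 5, 6 or 7, with an unadjusted p below 0.05 for Calcoco1 at day 6 alone. The lincRNA Gm10830 (chr15:103102237-103105069, plus strand) lies 65.4 kb beyond Hoxc4. It was called higher in the same step as the cluster, where edgeR called 9.27% of all genes higher with XAV939 and 11.1% without. It had 18, 20, 43 and 31 counts in the XAV939 libraries of day 6, against 1, 0, 6 and 1 at day 5 (log2 fold change 3.59, SE 0.71, edgeR adjusted p 0.000386). In untreated libraries it had 34, 18, 7 and 52 counts at day 6, against 8, 5, 2 and 5 at day 5 (2.53, SE 0.62, adjusted p 0.00285). An antisense lincRNA, Gm28265, overlaps it, and the strand setting of the counting is not given in the sources used here. Gm10830 had higher means at day 7 (1.53 ± 0.774 CPM with XAV939 and 1.66 ± 0.573 CPM without) than at day 6 (0.743 ± 0.316 and 0.793 ± 0.562 CPM). On the other side of the cluster the lincRNA Gm4544 was also called higher at day 6 than at day 5, by 4.10 (SE 0.55) with XAV939 and 3.87 (SE 0.52) without. Of the other 10 tested neighbours edgeR called 0 in this step in either arm, among them the protein-coding gene Calcoco1 between Gm4544 and the cluster (-0.20 with XAV939 and -0.10 without). Whether the neighbours were called more often than genes elsewhere was not tested.

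Over the 40 libraries the members from Hoxc4 to Hoxc9 tracked each other and genes outside the cluster, other Hox genes among them. Pearson's r of log2 CPM, a description over libraries that share the time course, was 0.99 between Hoxc4 and Hoxc5, 0.98 between Hoxc4 and Hoxc8, 0.92 between Hoxc4 and Hoxc9 and -0.73 between Hoxc4 and Hoxc13. Among 13483 genes outside the cluster the most like Hoxc4 was Hoxd4 (r = 0.99), the most like Hoxc5 and Hoxc8 was Hoxb5 (0.99 and 0.98), the most like Hoxc6 was Hoxb5os (0.99) and the most like Hoxc9 was Hoxa7 (0.93). The somite factor Foxc2, not a Hox gene, ranked 2 for Hoxc8 (0.98) and 3 for Hoxc6 (0.98). When each group's mean was taken away, so that only differences between libraries of the same group were left, Hoxb5os was the most like Hoxc4 (r = 0.90) and Hoxc6 (0.87), Hoxd3 the most like Hoxc5 (0.88) and Hoxd4 the most like Hoxc8 (0.83). With that measure Hoxc9 was most like Rcsd1 at 0.67. Untreated library 1 of day 5, which stood apart in the members from Hoxc4 to Hoxc9, was included. Its weight on these values was not tested.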

How the data were processed

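Poly(A) RNA of 40 libraries was sequenced with a stranded TruSeq kit after Trizol extraction, per the labels' protocols. The authors deposited whole-number read counts per gene. Their processing notes name bcl2fastq 2.20.0 and the build mm10, and the sources used here do not give the aligner, counter, annotation or strand setting. Total counts were 30197759 to 44086019 per library. No 2 libraries of a group were copies (60 pairs, lowest chi-square per gene 8.14).

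The counts of all 40 libraries were fitted together, with 1 mean per group, by quasi-likelihood in edgeR 4.0.16 (R 4.3.3, limma 3.58.1) with TMM scaling and 30 residual degrees of freedom. filterByExpr (minimum count 10, minimum total 15) kept 16878 genes, which removes genes low in every group. P-values were adjusted by Benjamini-Hochberg over these genes. Fold changes use edgeR's default prior count, and the log2 CPM of the correlations use a prior count of 2. Exact 95% intervals of count ratios and floors of 3 counts cover counting error only. The fits were tested on simulated data. DESeq2 1.42.0, other scaling and filters, a fold threshold, replicate blocks and left-out libraries were the alternatives. Figures were drawn with matplotlib 3.10.9.

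The members, gene lists and alternatives were chosen with earlier results of these data known. All 9 members were named. Of other lists, up to 4 genes with the smallest adjusted p were named, and neighbours within 300 kb and the 3 most alike genes were examined. Hoxa4, Hoxb4, the Cdx genes, T at day 4, Hoxa9, Hoxb9 and Aldh1a2 at day 6, Pou5f1 and Calcoco1 were named outside this rule, with their values seen. Replicate numbers come from the titles. Libraries of the same number and day deviated together (correlations 0.187 to 0.647 over 20 pairs), and so count as paired. The main fit does not use this pairing, so its SE and p are those of unpaired groups. Fits with a replicate block are among the alternatives. At days 6 and 7 no alternative called Hoxc4, Hoxc5, Hoxc6, Hoxc8 or Hoxc9 between the arms. The result of 1 marker gene is not reported here.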

Additional observations from a re-analysis of the deposited data

Results flagged for a closer look

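In untreated aggregates of day 5, library 1 lay far from the other 3 libraries in 5 members. It had 6.33 CPM of Hoxc4, against 0.452 to 0.847 CPM in the others, and 3.23 CPM of Hoxc5, against 0.141 to 0.424 CPM. It had 2.72 CPM of Hoxc6, against 0.0789 to 0.282 CPM, and 9.74 CPM of Hoxc8, against 0.316 to 1.27 CPM. For Hoxc9 it had 0.687 CPM, against 0.0263 to 0.113 CPM. The same library was the highest of its group for Aldh1a2 (216 CPM), Cdx1 (134 CPM) and Cdx2 (119 CPM), and the lowest for T (283 CPM) and Pou5f1 (262 CPM). At day 4 untreated library 1 was the highest of its group for T (550 CPM against 11.8 to 24.6 CPM). It was also the highest there for Cdx1 (31.4 CPM against 0.151 to 1.59 CPM) and Cdx2 (10.7 CPM against 0.121 to 0.918 CPM). Whether libraries of the same number belong together across days was not tested.

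Hoxc13 had 0.548 CPM in XAV939 library 3 of day 3, against 0.0732 to 0.15 CPM in the other 3 libraries. It had 0.289 CPM in untreated library 4 of day 5, against 0.0283 to 0.0597 CPM in the others. These are 7 of 30 groups of 4 libraries tested with Dixon's gap, and the 5 in untreated library 1 of day 5 come from 1 library. For independent, normally distributed values chance alone exceeds the limit in about 1 of 20 groups. Low counts of members that track each other need not keep that rate.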

How the results depend on the processing

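At day 5 the count of members called lower with XAV939, 4 in the report, was 0 with a threshold of 1 on the absolute log2 fold change, 0 in a fit of only the libraries compared and 0 without library 1 of every group. Leaving out 1 library at a time it ranged between 0 (without untreated library 1) and 4, with 1 without XAV939 library 4. The count called higher at day 5 against day 4 with XAV939, 0 in the report, was 2 with DESeq2 and 1 without library 1 of every group. In untreated aggregates the counts of 5 called higher at day 5 and at day 6 were 2 and 3 in fits of only the libraries compared. At day 5 the 2 were Hoxc4 and Hoxc8, and the other 3 members did not pass the filter of that fit. At day 6 Hoxc5 (adjusted p 0.0899) and Hoxc8 (adjusted p 0.0691) lost their call. Leaving out 1 library gave 4 to 5 at day 5.

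Onset with 3 counts was day 5 for Hoxc4 with XAV939 and for Hoxc5 and Hoxc6 without, and day 4 for Hoxc13 without. With 10 counts in any 1 library it was day 5 for Hoxc4 and Hoxc8 with XAV939 and for Hoxc5, Hoxc6 and Hoxc9 without. By that limit Hoxc13 had its onset at day 3 in both arms. With 30 counts it was day 6 for Hoxc4 and Hoxc8 in untreated aggregates, and 0 groups gave an onset for Hoxc9. Leaving out 1 library at a time, the untreated onset of Hoxc5 ranged between day 5 (without untreated library 3 of day 5) and day 6. Per kb of its longest transcript, Hoxc6 at day 7 had 3.94 CPM with XAV939 and 5.26 without.

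No value that changed sign was called. Without library 1 of every group the day 7 effect on Hoxc5 was 0.025. For Hoxc5 at day 7 against day 6 with XAV939 it was 0.0074 with relative log expression, 0.0072 with DESeq2, 0.0058 with a filter of 1 CPM, 0.0026 in a fit of only the libraries compared and 0.021 without library 1 of every group, and leaving out 1 library gave -0.21 to 0.29. Leaving out 1 library also turned, for day 7 against day 6, Hoxc4 with XAV939 (-0.00078 to 0.45), Hoxc4 untreated (-0.38 to 0.059) and Hoxc6 untreated (-0.43 to 0.032). It turned the change of the effect on Hoxc9 at day 6 against day 5 (-0.39 to 2.25) and at day 7 against day 6 (-0.094 to 0.92), and that on Hoxc8 at day 7 against day 6 (-0.42 to 0.15). The cause was not tested.

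In the fit with a replicate block within day, 3 members were called lower at day 5, Hoxc5 having lost its call, and the change of the effect on Hoxc8 at day 7 against day 6 was 0.059. With a block over all days 4 were called, and neither block changed another count of calls by over 1.5 times. Of the counts of calls, onset days and levels under all alternatives, 802 stayed within the limits set and 24 moved. Of the values of single genes, 970 kept their direction and side of the threshold, 29 lost their call and 25 changed sign. Depth limits Hoxc10, Hoxc11, Hoxc12 and Hoxc13, and Hoxc9 at day 5.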
